A study of Homo sapiens with 12 samples.

Results

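Rotenone was set against its vehicle, DMSO, in MDA-MB-231 cells, a long-established human line from a triple-negative breast tumour. The comparison rests on 3 arrays titled for Rotenone and 3 titled for DMSO, 6 of the 12 Affymetrix expression arrays of the set. The other 6 arrays, 3 of cells given Manassantin and 3 of cells given Digoxin, also entered the fit, where all 12 arrays share an estimate of the spread, and were compared with Rotenone directly. A fit on the 6 arrays of Rotenone and DMSO alone called 859 genes, of which 675 were among the 830 called in the shared fit. All groups received their agent for 24 h in full DMEM with serum. The sources used here state neither doses nor oxygen levels, and the design text writes digitoxin where the titles write Digoxin. The labels do not name separate cultures behind the arrays of a group, so p-values rest on the array-to-array spread, which may be technical only.

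Rotenone is a plant compound that blocks electron transfer at complex I, the entry point for NADH into the mitochondrial respiratory chain. It also binds tubulin and hinders microtubule assembly, and cells that cannot build a spindle are held in mitosis by a checkpoint. During the cell cycle, genes for DNA synthesis are switched on ahead of S phase by E2F transcription factors, and genes for mitosis are switched on later, in G2. Immediate early genes, such as FOS and EGR1, are transcribed within minutes of a stimulus without new protein synthesis.

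Every value is the log2 intensity of 1 probe set, the brightest among those annotated to exactly 1 gene symbol, for 11963 genes. A difference of 1 on this scale is a 2-fold change. A gene is said to rise or fall, or to be called, where limma gave an adjusted p under 0.05 over all 11963 genes (Benjamini-Hochberg). A gene is termed dim where its mean over the arrays lay under the 40th percentile of genes, at 5.747. Markers of a mesenchymal breast line were bright: the mean of VIM, CD44, AXL, CAV1, EGFR and MSN lay between 11.82 and 11.84 on the Rotenone arrays and between 11.87 and 11.89 on the DMSO arrays. Of these 6 only EGFR was called, at -0.19. The luminal genes CDH1, PGR and ERBB3, all 4 leukocyte markers and all 3 endothelial markers were dim, while the luminal genes KRT19, EPCAM, GATA3 and ESR1 were not.

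Rotenone moved many transcripts by a little. Of the 11963 genes 830 were called, or 6.94%, with 425 higher (3.55%) and 405 lower (3.39%). Counts of called list members below are to be read against these shares. For 31.2% of genes all Rotenone arrays lay on the same side of all DMSO arrays, 16.9% with Rotenone higher and 14.3% with Rotenone lower. The median size of a called change was 0.30, and 6 genes rose and 2 fell by 2-fold or more. With 1 of the 6 arrays left out the count lay between 346, without Rotenone replicate 2, and 500, without DMSO replicate 1. Of the 830 genes, 288 were called in all 6 such fits. The 18S rRNA control averaged 10.0 ± 0.152 with Rotenone and 10.4 ± 0.315 with DMSO (SD, n = 3 each, exact permutation test, two-sided, p = 0.2, where 0.1 is the smallest possible). With this control as a covariate 339 genes were called, and its part in the result was not tested further.

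**Figure D1:**
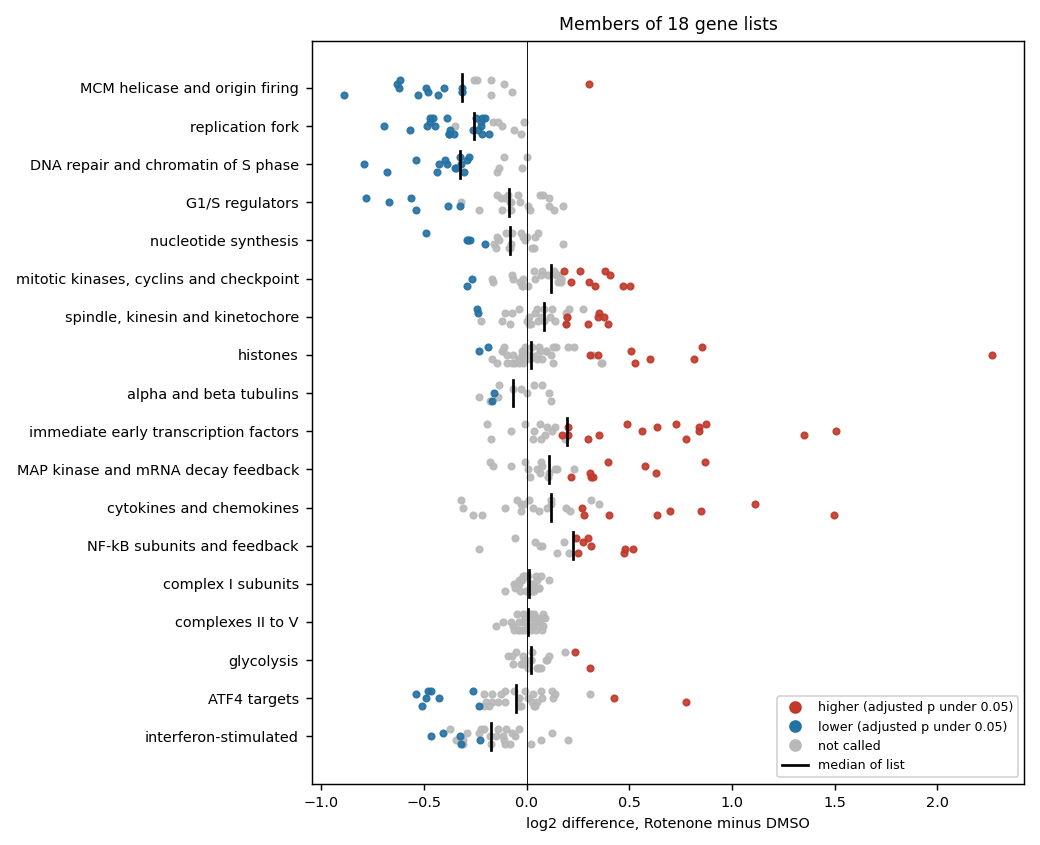
Log2 difference, Rotenone minus DMSO, of each measured member of 18 gene lists (points), with called members in red (higher) or blue (lower), the others in grey, and the median of each list as a black bar. The medians of the helicase, replication fork and DNA repair lists lie at -0.32, -0.26 and -0.33, those of the immediate early and NF-kB lists at 0.19 and 0.22, and that of complex I subunits at 0.01.

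Genes of DNA replication fell broadly. Of 19 measured genes of the replicative helicase and of origin firing 11 fell and 1 rose, with a median difference of -0.32. Of 28 genes of the replication fork 21 fell and 0 rose (median -0.26), against 3.39% of all genes lower. In these bulk samples less of a transcript in each cell and fewer cells of a kind, such as fewer cells in S phase, cannot be told apart. The helicase count was 10 to 13 with 1 array left out. The fork count was 10 to 15, with the low value without DMSO replicate 2.

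MCM6, a subunit of the ring-shaped helicase that unwinds DNA at the fork, read 9.63, 9.59 and 9.56 on the Rotenone arrays and 10.44, 10.47 and 10.54 on the DMSO arrays. It fell by 0.89 ± 0.048 (SE, adjusted p = 2.04e-06), and the arrays of the groups lay far apart. MCM5, another subunit of that ring, read 8.10, 8.0 and 8.02 with Rotenone and 8.72, 8.67 and 8.63 with DMSO. MCM5 fell by 0.63 ± 0.047 (adjusted p = 3.25e-05), MCM3 by 0.62 and MCM4 by 0.48. MCM2 and MCM7, the remaining subunits of the ring, fell by 0.40 and 0.32. The proteins that turn the ring into an active helicase behaved alike: GINS2, of the GINS complex, fell by 0.62 ± 0.058 and CDC45 by 0.53 ± 0.058. CDC45 read 6.99, 6.89 and 6.91 with Rotenone and 7.46, 7.45 and 7.47 with DMSO. CDC6, which loads the ring at origins, fell by 0.49 and MCM10, which activates it, by 0.43. The 1 member that rose was DBF4, the regulatory subunit of the kinase that fires origins, at 0.30, and its call was lost in 4 of the 6 fits with 1 array left out.

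At the fork, POLA1, the catalytic subunit of the polymerase that starts each strand, read 7.94, 7.84 and 7.92 with Rotenone and 8.44, 8.63 and 8.71 with DMSO. It fell by 0.70 ± 0.064 (adjusted p = 9.95e-05). PRIM1, the primase that works with it, read 8.62, 8.55 and 8.58 with Rotenone and 9.05, 9.24 and 9.17 with DMSO, a fall of 0.57 ± 0.067. The groups did not overlap for either gene. LIG1, which seals the pieces of the lagging strand, fell by 0.47, POLE2, of the leading-strand polymerase, by 0.46, and RFC2, of the complex that loads the sliding clamp, by 0.45. TOPBP1, which links origin firing to the checkpoint, fell by 0.48. WDHD1, which couples the helicase to that polymerase, stood at -0.39 and was called in none of the fits with 1 array left out.

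Promoter sequences of 3 of these genes are shown because E2F letters occur close to their starts. They are the 150 bases before the transcription start (RefSeq, GRCh38.p14), read 5′ to 3′ on the gene's strand, with matches in capitals. MCM6 lies at chr2:135876444-135876593 (minus strand), GINS2 at chr16:85688955-85689104 (minus strand) and POLA1 at chrX:24693768-24693917 (plus strand). In MCM6, matches on both strands overlap within 1 run.
MCM6: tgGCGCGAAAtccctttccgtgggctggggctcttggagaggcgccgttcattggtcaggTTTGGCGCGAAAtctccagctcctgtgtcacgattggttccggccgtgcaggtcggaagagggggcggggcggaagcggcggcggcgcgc
GINS2: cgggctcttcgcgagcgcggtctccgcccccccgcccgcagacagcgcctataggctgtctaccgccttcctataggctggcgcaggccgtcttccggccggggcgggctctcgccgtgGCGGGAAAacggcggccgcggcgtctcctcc
POLA1: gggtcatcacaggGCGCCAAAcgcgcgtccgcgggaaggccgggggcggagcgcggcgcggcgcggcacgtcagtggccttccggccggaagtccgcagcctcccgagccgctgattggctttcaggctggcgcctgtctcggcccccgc

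The letters searched were TTTCCCGC, TTTGGCGC, TTTCGCGC and TTTGCCGC, on both strands, over 250 bases before each start. They occurred in 5 of 16 promoters of the helicase list and in 6 of 24 of the fork list. They stood in 2.79% of all 27305 RefSeq promoters and in 4.09% of the 9562 promoters matched to measured genes. Of genes that fell 35 of the 337 with a promoter entry held them, or 10.4%, and of genes that rose 9 of 342, or 2.63%. These shares describe letters in a window and not binding.

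Genes of DNA repair and of chromatin in S phase fell as widely. Of 19 measured 14 fell and 0 rose, with a median of -0.33, and 9 to 12 fell with 1 array left out. UNG, a uracil-DNA glycosylase that removes misplaced uracil, read 8.70, 8.89 and 8.79 with Rotenone and 9.56, 9.60 and 9.61 with DMSO. Its fall of 0.79 ± 0.056 (adjusted p = 3.25e-05) was the largest of the list. HELLS, a chromatin remodeler needed for DNA methylation, read 5.21, 5.35 and 5.26 with Rotenone and 6.02, 5.92 and 5.92 with DMSO, a fall of 0.68 ± 0.099. The groups were apart for both genes. FANCL, the ubiquitin ligase of the Fanconi pathway, fell by 0.54, RMI1, of the complex that resolves joined DNA strands, by 0.44, and the nuclease gene EXO1 by 0.43. The mismatch repair gene MSH6 fell by 0.39 and BRCA1 by 0.35, although the other probe set of BRCA1 did not pass.

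Among regulators of the G1/S step 6 of 26 fell and 0 rose, and all 6 fell in each fit with 1 array left out. CCNE2, a cyclin that drives entry into S phase, read 8.78, 8.49 and 8.77 with Rotenone and 9.40, 9.45 and 9.54 with DMSO. It fell by 0.78 ± 0.08 (adjusted p = 0.000216) and CCNE1, the other E-type cyclin, by 0.38. RBL1, which encodes the pocket protein p107, fell by 0.67 ± 0.075. The transcription factor genes E2F8 and E2F1 fell by 0.57 and 0.54, and E2F1 read 7.02, 7.17 and 7.29 with Rotenone and 7.70, 7.73 and 7.67 with DMSO. SKP2, a ubiquitin ligase subunit, fell by 0.33, but its 2 other probe sets had the opposite sign and were not called, and the call was lost with the 18S covariate, as was that of MCM10. CCND1, the cyclin of early G1, stood at -0.08 (adjusted p = 0.411), and MKI67, a proliferation marker, at 0.07 (adjusted p = 0.635).

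Enzymes that make nucleotides changed less. Of 23 genes 5 fell and 0 rose, with a median of -0.08. MTHFD2, a mitochondrial enzyme of folate metabolism, read 9.73, 9.85 and 9.80 with Rotenone and 10.25, 10.33 and 10.28 with DMSO, a fall of 0.49 ± 0.045 (adjusted p = 9.95e-05). DUT, which clears dUTP, and RRM1, the large subunit of ribonucleotide reductase, each fell by 0.29. TYMS, thymidylate synthase, fell by 0.28, and its other probe set did not pass.

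Some mitotic genes rose, and most were not called. Of 32 mitotic kinases, cyclins and checkpoint genes 9 rose and 2 fell (median 0.12), and of 33 spindle, kinesin and kinetochore genes 7 rose and 2 fell (median 0.08), against 3.55% of all genes higher. With 1 array left out 6 to 8 and 4 to 5 members rose. CDC20, which activates the ligase that ends mitosis and is held by the spindle checkpoint, read 11.35, 11.38 and 11.31 with Rotenone and 10.84, 10.85 and 10.83 with DMSO. It rose by 0.51 ± 0.046 (adjusted p = 9.5e-05). AURKA, a spindle pole kinase, read 11.60, 11.72 and 11.62 with Rotenone and 11.16, 11.19 and 11.17 with DMSO, a rise of 0.47 ± 0.05. For both genes every Rotenone array lay above every DMSO array.

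CDCA8, a subunit of the chromosomal passenger complex, rose by 0.40 ± 0.043, CCNB1, the cyclin that drives entry into mitosis, by 0.38 ± 0.044, and CCNB2 by 0.30. CCNB1 read 11.73, 11.71 and 11.70 with Rotenone and 11.34, 11.32 and 11.35 with DMSO. Of the spindle list TACC3, which crosslinks spindle microtubules, rose by 0.40 ± 0.047, KIF20A, a kinesin of cytokinesis, by 0.38 and CENPA, the centromeric histone variant, by 0.35. CKS1B, a small partner of cyclin-dependent kinases, fell by 0.26. CDK1, the kinase that CCNB1 activates, stood at -0.29 (adjusted p = 0.0199) and was called in 2 of the 6 fits with 1 array left out, and neither of its other probe sets passed. PLK1, a mitotic kinase, stood at 0.33 and was called in 3 of those 6.

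**Figure D2:**
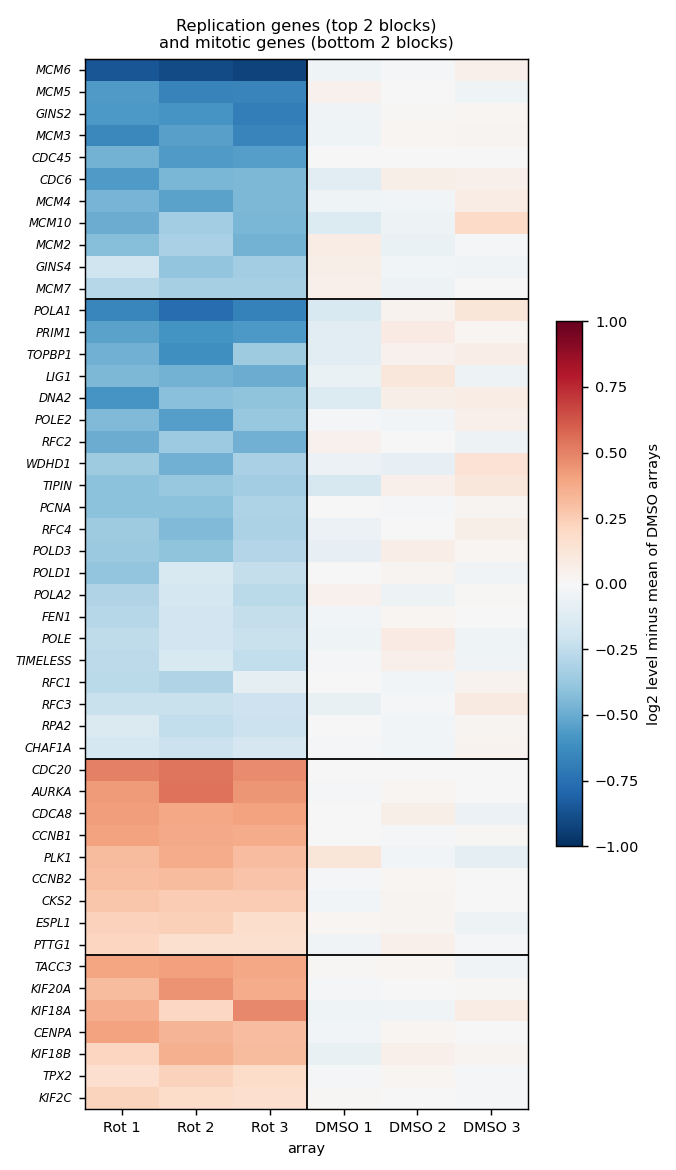
Log2 level of each called gene minus the mean of the DMSO arrays (colour), for 3 Rotenone arrays (left) and 3 DMSO arrays (right). The top blocks show the 11 helicase and 21 fork genes that fell and the bottom blocks the 9 mitotic kinase, cyclin and checkpoint genes and 7 spindle genes that rose; the genes were chosen by these calls, and the separation of the groups is no further evidence.

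The cell cycle homology region, read here as TTTGAA or TTCGAA on both strands, is a promoter element known from late cell cycle genes. These letters occurred in 13 of 24 promoters of the mitotic kinase list (54.2%) and in 15 of 31 of the spindle list (48.4%), against 10.9% of measured genes and 14.6% of all promoters. They stood in 13.7% of the called genes that rose and in 10.98% of those that fell. The 150 bases before the starts of CDC20, at chr1:43358831-43358980, and CDCA8, at chr1:37692366-37692515, both on the plus strand, are shown with the match in capitals, because these genes rose and hold the element near the start.
CDC20: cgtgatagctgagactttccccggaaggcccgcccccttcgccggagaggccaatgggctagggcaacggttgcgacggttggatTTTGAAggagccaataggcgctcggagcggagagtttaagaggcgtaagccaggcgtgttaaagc
CDCA8: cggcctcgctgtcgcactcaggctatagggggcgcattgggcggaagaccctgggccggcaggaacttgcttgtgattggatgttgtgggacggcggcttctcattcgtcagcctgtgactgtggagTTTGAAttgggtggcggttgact

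Most histone genes were not called, and more rose than fell. Of 50 measured, 36 of them dim, 8 rose (16%, against 3.55% of all genes) and 2 fell (4%, against 3.39%). H2BC21, a histone H2B gene that was dim over all arrays, had the largest rise of all genes: 6.77, 7.03 and 7.0 with Rotenone and 4.79, 4.54 and 4.66 with DMSO. It rose by 2.27 ± 0.085 (adjusted p = 9.63e-08), or 4.81-fold. H1-2, a linker histone, read 9.74, 10.00 and 9.83 with Rotenone and 8.93, 9.06 and 9.02 with DMSO, a rise of 0.86 ± 0.099. H2AC6 rose by 0.81 ± 0.064, and read 8.73, 8.91 and 8.87 with Rotenone and 7.95, 8.10 and 8.02 with DMSO. The H2B genes H2BC5, H2BC9 and H2BC6 rose by 0.60, 0.53 and 0.51. These 6 genes were called in every fit with 1 array left out. H2BC12 (0.35) and the linker histone gene H1-10 (0.31) were called in 4 and in 3 of those 6 fits. The 2 that fell, H2AX at -0.19 and H2AZ2 at -0.23, were called in none of them. Clustered histone genes are near-identical in sequence, so signal of one may come from another, and the values of single H2B genes are uncertain in that respect. Whether the amplified RNA held all forms of a histone transcript alike was not tested, so these rises may not stand for histone RNA as a whole.

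**Figure D3:**
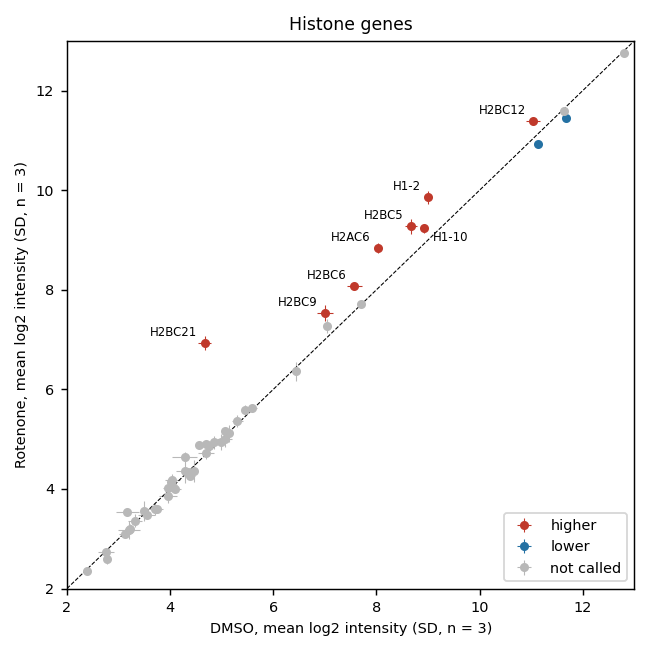
Mean log2 intensity of 50 histone genes with Rotenone (vertical axis) and with DMSO (horizontal axis), with SD over 3 arrays as bars; the dashed line marks equal values, red points rose, blue points fell and grey points were not called. H2BC21 stands at 6.93 with Rotenone and 4.67 with DMSO, and most of the dim genes lie along the line.

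Tubulin and cytoskeletal genes moved little. Of 13 alpha and beta tubulin genes 2 fell and 0 rose (median -0.07), and neither call held in any fit with 1 array left out. TUBB, the main beta tubulin, read 12.90, 12.90 and 12.84 with Rotenone and 13.06, 13.05 and 13.04 with DMSO, a fall of 0.17 ± 0.041 (adjusted p = 0.0322). TUBA1B, an alpha tubulin, read 13.32, 13.31 and 13.27 with Rotenone and 13.48, 13.46 and 13.44 with DMSO, a fall of 0.16 ± 0.04 (adjusted p = 0.0373). The groups did not overlap for either gene, and the differences were small. Of their other probe sets 1 of 2 of TUBB and 2 of 4 of TUBA1B passed, and 0 had the opposite sign. TUBA1C stood at -0.14 (adjusted p = 0.0815), TUBB2A at 0.07 and TUBB6 at 0.04. Tubulin genes share long stretches of sequence, so their values are not fully separate. Of 12 genes of other tubulins and tubulin folding 2 fell, among them TUBGCP3, of the gamma-tubulin complex that seeds microtubules, by 0.33, while its other probe set did not pass.

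Of 24 genes of actin and of serum response factor 3 rose and 0 fell. RHOB, a small GTPase of stress fibres and endosomes, read 7.76, 7.74 and 7.76 with Rotenone and 7.29, 7.21 and 7.06 with DMSO. It rose by 0.57 ± 0.074 (adjusted p = 0.00092) and was called in every fit with 1 array left out. The focal adhesion gene ZYX (0.31) and TAGLN (0.24), a smooth muscle actin-binding gene, were called in 3 and in 0 of those 6 fits. Of 21 target genes of YAP and TEAD 2 rose (9.52%) and 0 fell. Among 25 microtubule-associated proteins 1 rose and 1 fell, 4% each, against 3.55% higher and 3.39% lower of all genes.

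Immediate early transcription factors rose broadly. Of 28 measured 15 rose (53.6%, against 3.55% of all genes) and 0 fell (median 0.19). With 1 array left out 12 to 13 rose. NR4A2, an orphan nuclear receptor, read 6.96, 7.27 and 7.19 with Rotenone and 5.53, 5.73 and 5.65 with DMSO. It rose by 1.5 ± 0.17 (adjusted p = 0.00043), and its 2 other probe sets rose too. EGR1, a zinc finger factor, read 8.31, 8.18 and 8.14 with Rotenone and 6.95, 6.94 and 6.69 with DMSO, a rise of 1.35 ± 0.15 (adjusted p = 0.000357). The groups lay far apart for both, although the other probe set of EGR1 did not pass.

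The AP-1 genes FOSB, JUNB, FOS and FOSL2 rose by 0.88, 0.84, 0.84 and 0.64, with FOSB and FOS dim. JUNB read 6.68, 6.79 and 6.77 with Rotenone and 6.02, 5.81 and 5.90 with DMSO. ATF3, a stress-induced factor, read 7.23, 7.33 and 7.28 with Rotenone and 6.47, 6.62 and 6.43 with DMSO, a rise of 0.78 ± 0.07 (adjusted p = 9.5e-05). NR4A3 rose by 0.73, and neither of its other probe sets passed. MYC, a growth regulator, stood at 0.17 (adjusted p = 0.047) and was called in none of the fits with 1 array left out.

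Genes that limit MAP kinase signalling or shorten messenger RNA life rose in part: 8 of 23 rose (34.8%) and 0 fell (median 0.11). With 1 array left out 4 to 6 rose, the low value without DMSO replicate 2 or Rotenone replicate 2. DUSP1, a phosphatase that switches off MAP kinases, read 8.79, 8.90 and 8.86 with Rotenone and 7.83, 8.10 and 8.01 with DMSO, a rise of 0.87 ± 0.11 (adjusted p = 0.000707). Its other probe set did not pass. DUSP5, a nuclear phosphatase for ERK, rose by 0.63 ± 0.08, TRIB1, a pseudokinase, by 0.58 ± 0.05 and SPRY2, an inhibitor of receptor signalling, by 0.32. DUSP5 read 9.57, 9.72 and 9.55 with Rotenone and 8.85, 9.03 and 9.06 with DMSO, so the groups were apart.

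Cytokine and chemokine genes rose in part as well, with 8 of 27 higher (29.6%) and 0 lower (median 0.12, 15 of the 27 dim). With 1 array left out 5 to 8 were higher, the low value without DMSO replicate 3. IL24, a cytokine of the IL-10 family, read 5.82, 6.14 and 6.11 with Rotenone and 4.49, 4.72 and 4.37 with DMSO, a rise of 1.5 ± 0.13 (adjusted p = 8.23e-05). CXCL2, a neutrophil attractant, read 7.18, 7.16 and 7.41 with Rotenone and 6.28, 6.14 and 5.99 with DMSO, a rise of 1.11 ± 0.089 (adjusted p = 5.11e-05). Every Rotenone array lay above every DMSO array for both genes. IL6, an inflammatory cytokine, read 7.02, 6.94 and 6.92 with Rotenone and 6.16, 6.02 and 6.15 with DMSO, a rise of 0.85 ± 0.088. CXCL8 rose by 0.70 ± 0.098 and CXCL3 by 0.63 ± 0.093. CXCL1 stood at 0.40 and was called in 1 of the 6 fits with 1 array left out. CXCL1, CXCL2 and CXCL3 are close in sequence, so their values may share signal.

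Of 16 genes of NF-kB subunits and their feedback 8 rose (50%) and 0 fell (median 0.22). But 3 to 5 rose with 1 array left out, the low value without DMSO replicate 2 or 3 or Rotenone replicate 1 or 2. TNFAIP3, a ubiquitin-editing inhibitor of the pathway, read 6.86, 6.80 and 6.79 with Rotenone and 6.33, 6.27 and 6.32 with DMSO, a rise of 0.52 ± 0.052 (adjusted p = 0.000197). NFKBIE, an inhibitor of NF-kB, rose by 0.48 and the dim adaptor gene TRAF1 by 0.48. These 3 were called in every such fit. RELA, a subunit, stood at 0.25 (adjusted p = 0.0213) and was called in none of them, and its other probe set did not pass. Of 11 EGF receptor family and ligand genes NRG1, a ligand of ERBB3, rose by 0.33, while its 5 other probe sets did not pass. EGFR fell by 0.19 and was called in 1 of the 6 fits, and of its 5 other probe sets 4 had the opposite sign and none was called.

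Sequence before the starts of 3 of these genes is shown, 150 bases each as above, for known elements of the classes. In EGR1 (chr5:138465329-138465478, plus strand) the capitals mark 2 CArG boxes, the element of serum response factor. In CXCL2 (chr4:74099196-74099345, minus strand) and IL6 (chr7:22727050-22727199, plus strand) they mark the kappaB letters, GGG and TTCC with any 3 bases between them, and in CXCL2 matches on both strands overlap.
EGR1: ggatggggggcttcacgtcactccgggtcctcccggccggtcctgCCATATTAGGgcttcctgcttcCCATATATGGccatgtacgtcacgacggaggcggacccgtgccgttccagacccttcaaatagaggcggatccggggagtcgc
CXCL2: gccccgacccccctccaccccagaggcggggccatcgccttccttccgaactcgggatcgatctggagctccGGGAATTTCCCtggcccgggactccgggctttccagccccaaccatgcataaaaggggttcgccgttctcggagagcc
IL6: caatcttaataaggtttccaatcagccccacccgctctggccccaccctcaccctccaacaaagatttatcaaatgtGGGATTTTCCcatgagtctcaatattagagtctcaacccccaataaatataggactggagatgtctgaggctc

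The kappaB letters occurred in 10 of 19 promoters of the cytokine list (52.6%), against 6.25% of measured genes and 5.61% of all promoters, and in 9.94% of genes that rose. A CArG box occurred in 1 of 21 promoters of the immediate early list, against 1.21% of measured genes.

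**Figure D4:**
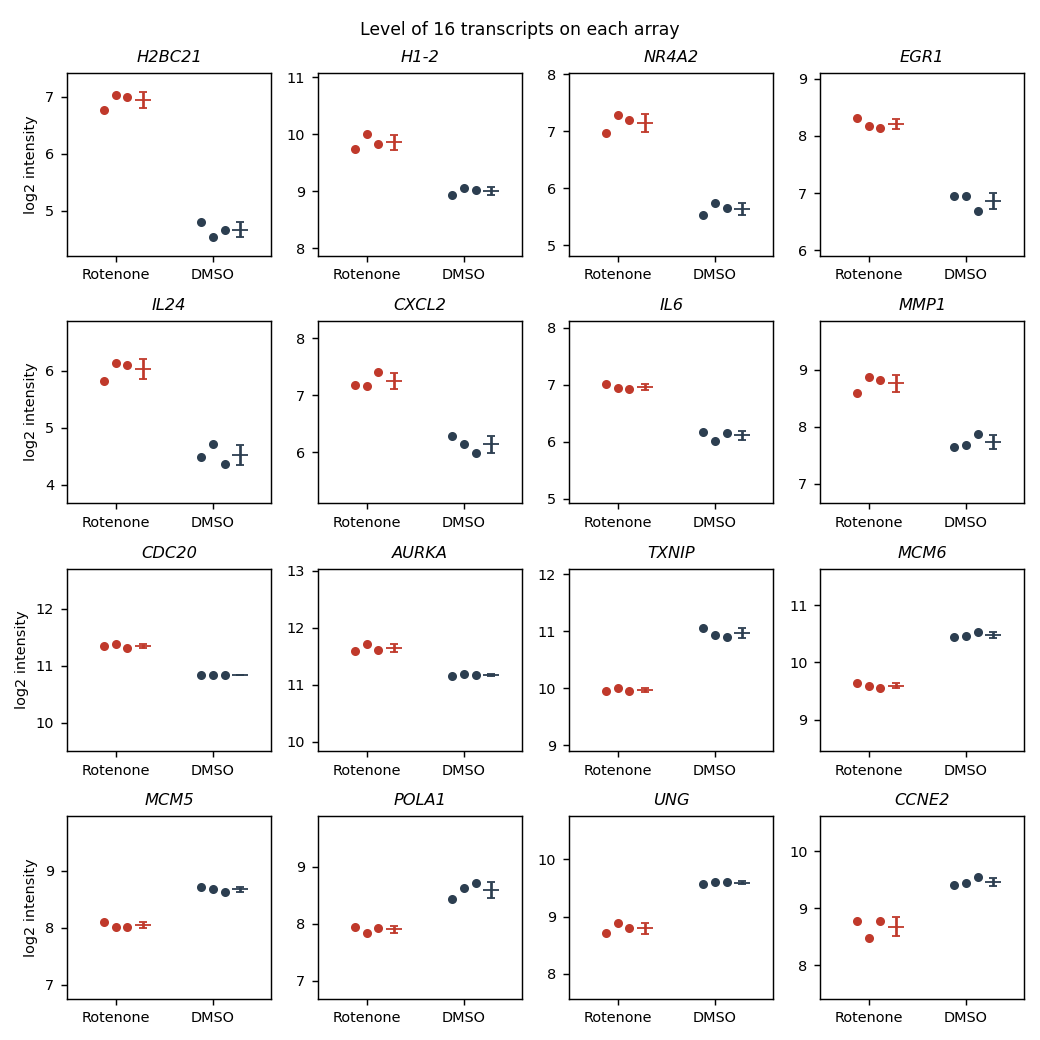
Log2 intensity of 16 transcripts on each of the 3 Rotenone arrays (red, left) and 3 DMSO arrays (dark, right), with the mean and SD beside the points. In each panel the groups do not overlap, with H2BC21 highest above DMSO at 2.27 and TXNIP farthest below it at -1.0; the transcripts were chosen by their calls.

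Genes of the respiratory chain, which contains the enzyme that rotenone blocks, were not called. Of 28 complex I subunits 0 were called (median 0.01, range -0.11 to 0.11), of 10 assembly factors 0, and of 39 genes of complexes II to V 0 (median 0.01, range -0.15 to 0.09). At an unadjusted p under 0.05 limma counted 0, 3 and 0 genes of these lists, against 2545 of all genes. Under the other settings tried 0 complex I subunits were called. NDUFS1, a core subunit, read 8.81, 8.90 and 8.86 with Rotenone and 8.90, 8.90 and 8.92 with DMSO, a difference of -0.05 (adjusted p = 0.643). NDUFV1, which binds NADH, stood at 0.03 (adjusted p = 0.808).

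Of 25 genes of the citric acid cycle and glutamine use 1 rose and 2 fell. ME3, a mitochondrial malic enzyme, read 7.92, 7.80 and 7.98 with Rotenone and 8.27, 8.29 and 8.29 with DMSO, a fall of 0.39 ± 0.058 (adjusted p = 0.00231). Among 22 genes of glycolysis there were 2 rises and 0 falls. SLC2A3, a glucose transporter, read 7.62, 7.60 and 7.57 with Rotenone and 7.33, 7.22 and 7.32 with DMSO, a rise of 0.31 ± 0.047 (adjusted p = 0.00281). HK2, which phosphorylates glucose, stood at 0.23 and was called in 1 of the 6 fits with 1 array left out, and its other probe set, at -0.19, had the opposite sign and was not called. ME3 and SLC2A3 were called in every fit with 1 array left out.

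Of 29 hypoxia-responsive genes outside glycolysis 5 rose and 2 fell (median 0.08). ADM, a vasodilator peptide, read 10.17, 10.20 and 10.30 with Rotenone and 9.57, 9.67 and 9.75 with DMSO, a rise of 0.56 ± 0.075 (adjusted p = 0.00116). CA12, a carbonic anhydrase of the cell surface, read 7.42, 7.35 and 7.15 with Rotenone and 8.24, 7.77 and 7.90 with DMSO, a fall of 0.66 ± 0.13 (adjusted p = 0.0102). The 2 genes moved in opposite directions, and only ADM of the 5 rises was called in every fit with 1 array left out. BHLHE40 stood at 0.48 and DDIT4 at -0.46, each called in 1 of the 6, and the other probe set of BHLHE40 did not pass. HIF1A, the oxygen-sensing transcription factor, stood at -0.06 (adjusted p = 0.606) and VEGFA, its angiogenic target, at 0.14 (adjusted p = 0.261), and for both the groups overlapped.

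Of 38 targets of ATF4, the transcription factor of the integrated stress response, 8 fell and 2 rose (median -0.05), with 3 to 5 lower when 1 array was left out, the low value without DMSO replicate 2 or Rotenone replicate 2. CTH, which makes cysteine, read 8.19, 8.25 and 8.30 with Rotenone and 8.68, 8.90 and 8.69 with DMSO, a fall of 0.51 ± 0.069 (adjusted p = 0.00119). MTHFD2, given above among the nucleotide genes, is also in this list. SLC1A4, a transporter of neutral amino acids, fell by 0.43. CHAC1 (-0.54) and PSAT1 (-0.48) were called in 3 and in 0 of the 6 fits. The 2 that rose were ATF3, given above, and PPP1R15A (0.42), which helps to end the stress response and lost its call without Rotenone replicate 2. ATF4 stood at -0.17 (adjusted p = 0.056), DDIT3, a factor of prolonged stress, at 0.07 and GDF15, a stress cytokine, at 0.31 (adjusted p = 0.354).

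Of 19 mitochondrial chaperones and proteases 3 rose and 0 fell, and 0 to 2 with 1 array left out. Of 21 endoplasmic reticulum chaperones 1 rose (4.76%, against 3.55% of all genes) and 0 fell. Of 28 cytosolic heat shock genes 3 rose and 0 fell (median 0.12), and 1 to 2 with 1 array left out. HSPB8, a small heat shock protein of selective autophagy, read 7.09, 7.16 and 7.01 with Rotenone and 6.57, 6.49 and 6.54 with DMSO, a rise of 0.55 ± 0.057 (adjusted p = 0.000232) that held in every such fit. HSP90AA1, the inducible Hsp90, stood at 0.01 and LAMP2, a lysosomal membrane protein of chaperone-mediated autophagy, at 0.05.

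TXNIP, which restrains glucose uptake and binds thioredoxin, was 1 of the 2 genes that fell by 2-fold or more. It read 9.95, 10.01 and 9.95 with Rotenone and 11.06, 10.94 and 10.91 with DMSO, a fall of 1.0 ± 0.053 (adjusted p = 2.04e-06). All 3 of its probe sets fell. It was the 1 called gene of the 12 measured in the list of TXNIP, its glucose sensors and related arrestins. The arrestin-domain genes ARRDC1, ARRDC2, ARRDC3 and ARRDC4 of that list were not measured.

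Of 9 genes of the aryl hydrocarbon receptor, a sensor of planar ligands, 3 rose (33.3%, against 3.55% of all genes) and 0 fell. CYP1A1, the cytochrome P450 that serves as its standard target, read 6.03, 6.22 and 6.14 with Rotenone and 5.16, 5.38 and 5.21 with DMSO, a rise of 0.88 ± 0.10 (adjusted p = 0.000467). TIPARP, a feedback repressor of the receptor, read 9.65, 9.55 and 9.71 with Rotenone and 9.11, 9.19 and 9.22 with DMSO, a rise of 0.46 ± 0.057. CYP1B1 rose by 0.27 and lost its call without DMSO replicate 2 (adjusted p = 0.0516). Of 29 NRF2 and antioxidant genes 2 rose (6.90%) and 1 fell (3.45%), against 3.55% and 3.39% of all genes. SQSTM1, an autophagy receptor, rose by 0.51 ± 0.058, and CAT, catalase, fell by 0.38 ± 0.064. HMOX1, heme oxygenase, stood at 0.55 and was called in 2 of the 6 fits.

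Of 19 targets of p53 only GADD45B, a stress-induced growth regulator, was called (5.26% higher, against 3.55% of all genes). It rose by 0.23, and its 3 other probe sets did not pass. CDKN1A, the CDK inhibitor p21, stood at 0.11 (adjusted p = 0.444). Of 14 BCL2 family genes 3 rose and 0 fell, all 3 of them genes that promote cell death. BCL2L11, or BIM, was dim and read 5.63, 5.76 and 5.55 with Rotenone and 5.08, 5.23 and 5.15 with DMSO, a rise of 0.49 ± 0.067 (adjusted p = 0.00121). BAK1 and BIK, each at 0.27, were called in 1 of the 6 fits with 1 array left out.

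ID genes, which block differentiation factors and follow BMP signalling, moved in opposite directions. ID2 read 7.46, 7.41 and 7.41 with Rotenone and 6.79, 6.81 and 6.71 with DMSO, a rise of 0.65 ± 0.08 (adjusted p = 0.000636). ID1 read 10.50, 10.56 and 10.47 with Rotenone and 10.82, 10.87 and 10.85 with DMSO, a fall of 0.34 ± 0.05. BMP4, a ligand, fell by 0.37 and SMAD6, an inhibitor of the pathway, by 0.54, but the 3 other probe sets of SMAD6 had the opposite sign and were not called. Of 22 genes of this list 1 rose and 3 fell, the same count in every fit with 1 array left out.

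Of 16 metalloproteinase and plasminogen genes 3 rose and 0 fell, also with any 1 array left out. MMP1, the interstitial collagenase, read 8.60, 8.87 and 8.83 with Rotenone and 7.64, 7.68 and 7.87 with DMSO, a rise of 1.03 ± 0.12 (adjusted p = 0.000467). PLAT, tissue plasminogen activator, rose by 0.54 ± 0.075 and PLAUR, the urokinase receptor, by 0.40 ± 0.05. ITGA5, the fibronectin receptor subunit, was the 1 called gene of 22 integrins (4.55% higher, against 3.55% of all genes). It rose by 0.34, and its call was lost with the 18S covariate.

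Of 12 fatty acid synthesis genes 3 fell and 0 rose. SREBF1, a transcription factor of lipid synthesis, read 6.98, 6.99 and 6.98 with Rotenone and 7.54, 7.39 and 7.29 with DMSO, a fall of 0.43 ± 0.075 (adjusted p = 0.00621). ACACA, the first enzyme of the pathway, fell by 0.25, while its other probe set had the opposite sign and was not called. SCD, a desaturase, stood at -0.68 with 2 of the 6 fits called, and none of its 3 other probe sets passed. Of 20 cholesterol synthesis genes 0 were called by limma, and 8 had an unadjusted p under 0.05.

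Interferon-stimulated genes leaned lower, with 5 of 29 lower and 0 higher (median -0.17), but 1 to 3 lower with 1 array left out, the low value without Rotenone replicate 2. HERC5, a ligase for ISG15, read 8.20, 8.06 and 8.24 with Rotenone and 8.61, 8.64 and 8.65 with DMSO, a fall of 0.47 ± 0.055 (adjusted p = 0.000467), and it alone was called in every such fit. Of 24 ribosome biogenesis genes 5 rose and 0 fell (median 0.14), among them NOP2 (0.31), BYSL (0.31) and DDX10 (0.29), which act in ribosomal RNA processing. Of 31 lysosomal genes 2 rose (6.45%, against 3.55% of all genes) and 0 fell. NEU1, a sialidase, rose by 0.43 and NPC1, which exports cholesterol from the lysosome, by 0.28. The other probe set of NPC1 had the opposite sign and was not called.

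Genes outside these lists were also among the 15 largest rises and falls. RRAD, a small GTPase that was dim, read 6.06, 6.03 and 6.01 with Rotenone and 5.03, 5.23 and 5.22 with DMSO, a rise of 0.87 ± 0.064 (adjusted p = 3.25e-05). SCG5, a chaperone of a prohormone convertase, read 7.54, 7.68 and 7.77 with Rotenone and 6.78, 6.70 and 6.77 with DMSO, a rise of 0.91 ± 0.076. PPFIBP2, a liprin, was dim and read 5.33, 5.32 and 5.28 with Rotenone and 6.53, 6.29 and 6.34 with DMSO, a fall of 1.07 ± 0.11 (adjusted p = 0.000217). NEDD9, a scaffold of cell adhesion signalling, read 7.30, 7.38 and 7.36 with Rotenone and 8.18, 8.08 and 7.98 with DMSO, a fall of 0.73 ± 0.085, while its other probe set did not pass. LACTB2 fell by 0.73 and the dim genes NDP, a Wnt receptor ligand, and GALNT12, a glycosyltransferase, by 0.82 and 0.71. LIPG (-0.97), PLCE1 (-0.69) and CRTAM (-0.70) were dim and were called in 2, 3 and 5 of the 6 fits with 1 array left out.

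Values of Manassantin and Digoxin against DMSO use the same 3 DMSO arrays, so they are set side by side, and differences were tested directly between compounds. Between Rotenone and Manassantin 1013 genes were called (8.47%), 452 higher with Rotenone (3.78%) and 561 lower (4.69%). With 1 array left out the count lay between 500 and 835. Of the 19 helicase genes 12 were lower with Rotenone than with Manassantin and 1 higher, of the 28 fork genes 20 were lower, and of the 19 repair genes 13. Of 32 mitotic kinase, cyclin and checkpoint genes 14 were higher and 2 lower, and of 33 spindle genes 17 were higher and 1 lower. Of 50 histone genes 11 were higher, of 28 immediate early factors 13 were higher and 2 lower, and of 28 complex I subunits 0 were called by limma. The histone count was 7 without Rotenone replicate 2, and the lower calls of the mitotic and spindle lists were lost in most fits with 1 array left out. Of 13 alpha and beta tubulin genes 5 were lower with Rotenone than with Manassantin and 0 higher (median -0.12), against 4.69% of all genes lower.

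H2BC21 was 2.52 higher with Rotenone than with Manassantin (adjusted p = 2.9e-08), NR4A2 1.69 and FOS 1.10 higher. MCM6 differed by -0.79 and MCM5 by -0.76, both with adjusted p = 9.41e-06. AURKA was 0.64 and CDC20 0.55 higher. ID2, which stood at 0.65 with Rotenone and -0.43 with Manassantin against DMSO, was 1.09 higher with Rotenone (adjusted p = 2.44e-05). These calls held with each of the 6 arrays of that comparison left out.

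Some changes could not be told apart between the 2 compounds. TXNIP stood at -1.0 with Rotenone and -0.97 with Manassantin, a difference of -0.03 with a 95% interval of -0.15 to 0.08. SLC2A3 differed by 0.02 (-0.09 to 0.12), PLAT by 0.07 (-0.09 to 0.24), TIPARP by 0.10 (-0.03 to 0.22) and CYP1A1 by 0.19 (-0.03 to 0.42). MMP1 differed by 0.25 (-0.02 to 0.51, adjusted p = 0.244). Missing the threshold does not show that these genes responded alike. CYP1B1 was lower with Rotenone by -0.25 (adjusted p = 0.0133), and this call held in 3 of the 6 fits with 1 array left out.

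Rotenone and Digoxin, an inhibitor of the sodium pump from foxglove, differed in 6039 genes (50.5%), 3147 higher with Rotenone (26.3%) and 2892 lower (24.2%). With each array scaled to a common median the split was 2629 higher and 4494 lower, so directions of small differences depend on the scaling. Of 19 helicase genes 13 were lower with Rotenone than with Digoxin and 2 higher, and of 28 fork genes 18 were lower and 5 higher. Of 50 histone genes 31 were lower and 2 higher, and of 28 immediate early factors 16 were lower and 5 higher. H2BC21 rose with Digoxin too, by 2.02 against DMSO. It was 0.24 higher with Rotenone than with Digoxin (adjusted p = 0.0314), a call that held in 2 of the 6 fits with 1 array left out. EGR1 differed by -2.45 (adjusted p = 6.2e-08), IL6 by -2.36 and IL24 by -1.64, all lower with Rotenone. E2F1 differed by -1.10 and MCM5 by -0.76, while ID2 was 1.51 higher with Rotenone. Against DMSO, replication genes went both ways with Digoxin: MCM6 stood at -0.67 and POLA1 at -0.92, CDC45 at 0.30 and CDC6 at 0.57. POLA1 was 0.23 higher with Rotenone than with Digoxin (adjusted p = 0.0105). TXNIP, which stood at 1.64 with Digoxin against DMSO, differed by -2.64 between Rotenone and Digoxin (adjusted p = 4.67e-11). NR4A2 stood at 1.5 with Rotenone and 1.44 with Digoxin against DMSO and differed by 0.06 (95% interval -0.31 to 0.44).

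**Figure D5:**
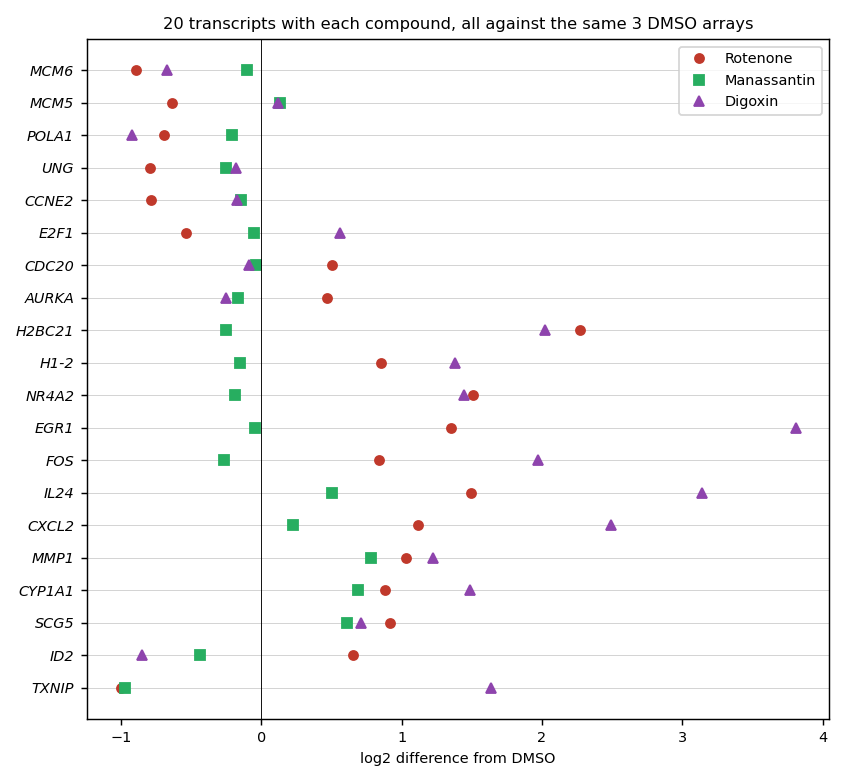
Log2 difference from DMSO of 20 transcripts with Rotenone (red circles), Manassantin (green squares) and Digoxin (purple triangles), all against the same 3 DMSO arrays. MCM5 lies at -0.63 with Rotenone, 0.13 with Manassantin and 0.12 with Digoxin, and TXNIP lies at -1.0, -0.97 and 1.64. With Digoxin MCM6 lies at -0.67 and POLA1 at -0.92.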

How the data were processed

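The deposited values are 1 table of log2 intensities of probe sets, made and normalized by the authors. The base was read from the range of the values, 1.655 to 13.75, and array medians ran from 5.881 to 5.995; the sources used here do not state the background correction, summarisation or scaling. Per the labels' protocols, total RNA was amplified, labelled with biotin and hybridized. Of 22277 probe sets 62 were controls, 19064 had 1 gene symbol in the platform annotation, 1043 had several and 2108 had none; 19052 of the 19064 matched a current gene record. The brightest probe set of each gene over the 12 arrays was kept, for 11963 genes. Genes with no such probe set were not analysed here.

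Groups and replicate numbers came from the sample titles. Differences were fitted with limma 3.58.1 in R 4.3.3 (lmFit, eBayes) on all 12 arrays, with no term other than group; the residual degrees of freedom were 8 and those of the prior 3.68. P-values were adjusted by Benjamini-Hochberg over all genes of a comparison, and the number of arrays limits the precision. No genes were filtered. The procedure was tested on simulated data, with differences added to 200 of 11963 genes. It called 46.3% of differences of 0.3, 80.2% of those of 0.5 and 99.4% of those of 1, with 5.16% false among calls. A gene that was not called is therefore not shown to be unchanged. Replicates correlated at 0.998 to 0.999, and 0 array columns were identical.

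The gene lists and the rule for named genes were chosen with earlier results of these data known. The rule took the 15 largest called rises and falls, up to 8 leading called members of each list, members whose role is explained, and a set tied to the compound. Promoter sequences were from RefSeq (GRCh38.p14) for 9562 of the genes. Alternatives were a replicate block, other scalings, probe set rules, priors and weights, the 18S control as a covariate, and arrays left out. Deviations of same-numbered Rotenone and Manassantin arrays from their group means correlated at 0.256, 0.362 and 0.107. Rotenone replicate 3 correlated about as well with Manassantin replicate 1, at 0.109, so whether the numbers pair these arrays was not settled. Same-numbered Rotenone and Digoxin arrays correlated at 0.0943, 0.0531 and 0.0809, and differently numbered ones between -0.0699 and -0.00675. The labels do not say what a number marks, and the main fit held no term for it. Figures were drawn with matplotlib 3.10.9.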

Additional observations from a re-analysis of the deposited data

How the results depend on the processing

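Between Rotenone and DMSO 830 genes were called. Leaving out dim genes gave 1301, weighting the arrays 1614 and a trended robust prior 1312. The count was 339 with the 18S covariate and 265 with replicate 1 of every group left out. With each of the 6 arrays left out in turn it was 346 to 500. Between Rotenone and Manassantin 1013 genes were called, against 1540 after leaving out dim genes, 1545 under the trended prior and 226 with replicate 1 of every group left out, and 500 to 835 with each array left out. Quantile normalization gave 510 higher and 495 lower there, and median centring 472 and 494. Between Rotenone and Digoxin the count stayed within 1.5 times of 6039, with 5365 to 5797 when an array was left out. Median centring gave 2629 higher and 4494 lower with Rotenone than with Digoxin. Of the 173 named calls against DMSO, 63 were lost with the 18S covariate, 72 with replicate 1 of every group left out, and 35 to 59 with 1 array left out; 107 held in all 6 of the last. Those lost with replicate 1 left out included calls otherwise stable, such as CAT, HELLS, SREBF1, SLC2A3 and CCNB2. No named change against DMSO was called with the opposite sign in any alternative run.

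With the replicate number as a block the counts were 1081 against DMSO, 1352 against Manassantin and 6299 against Digoxin. The median SE of a difference was 0.066 with the block and 0.074 without it. Same-numbered Rotenone and DMSO arrays correlated at 0.118, 0.0339 and 0.185, so the numbers were not taken to pair those samples, and each Rotenone array correlated best with the DMSO array of its own number only for replicates 1 and 3. Under the block 3 of the 190 named genes changed sides of the threshold against DMSO (ZFP36, TUBA1A and ATF4), and 0 of 27 did against Manassantin or against Digoxin. Signal over background is not given in the table, so calls among dim genes, 83 of the 830, carry no check that the transcript was detected.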
